A study of Mus musculus with 17 samples.

Results

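The genes described here are 37 genes of the skeletal muscle sarcomere, its calcium handling and its energy metabolism, read in polyadenylated RNA of whole mammary glands. A member was a row of the deposited expression table whose gene name equals one of the 37. Of these, 32 had a row of their own, among 30843 loci in the table and 12782 loci analysed. The other 5 (Myh1, Myh2, Myh7, Casq1 and Tpm3) were found only in 4 loci that carry several gene names, and the values of 3 of these loci are given apart. The mammary gland holds no skeletal muscle of its own, and the gland of the mouse lies between the skin, with its thin sheet of panniculus muscle, and the body wall.

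The mice were nulliparous females of strain C57Bl/6 in 4 groups, whose age and treatment are not given in the labels. WT mice were wild type. AROM mice carried tet-op-CYP19A1 and MMTV-rtTA, a tetracycline-responsive gene of the estrogen-making enzyme aromatase switched by a transactivator under the MMTV promoter. CERM mice carried tet-op-Esr1 and MMTV-rtTA, the same switch on the gene of estrogen receptor alpha. BRCA mice were Brca1fl11/fl11/MMTV-Cre/p53+/-, with a Brca1 exon deleted where MMTV-Cre is active and 1 intact Trp53 allele in every cell. MMTV is active mainly in mammary epithelium, whereas the Trp53 allele is missing in muscle too. The part of either in the muscle values was not tested. The labels list 17 libraries, 8 single-end and 9 paired-end, but the table holds 1 pooled value of FPKM (fragments scaled by transcript length and by the number mapped) per gene, genotype and read layout, 8 columns in all. With single pooled values no error can be given and no test was run, so every difference below describes these columns only. The counts behind the values are not given. Libraries in the labels number 2 for each single-end column, and 1 (WT), 3 (AROM), 3 (CERM) and 2 (BRCA) for the paired-end ones. The labels do not say whether the same animals stand behind both layouts. In the WT columns 66.4% (single-end) and 66.3% (paired-end) of the values above 0 carry decimals as of a mean of 3 values, against at most 0.0307% in any other column. How these means were made is not given, and it touches each comparison with WT. Of the altered genes, Esr1 was at 8.49 and 8.41 FPKM in CERM and at 8.41 and 7.87 in AROM, single-end and paired-end. WT was at 7.27 and 6.89, so CERM was 1.17 and 1.22 times WT, short of the 2-fold used below, and Esr1 does not set CERM apart. Trp53 was at 12.3 and 12.1 FPKM in BRCA against 41.1 and 34.5 in WT. Brca1 was at 3.28 and 3.29 FPKM in BRCA against 1.13 and 0.851 in WT; a value over the whole gene does not check the deletion of an exon. The aromatase transgene is human, so mouse Cyp19a1 checks nothing. Genotype names below are those of the columns.

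A muscle fibre contracts when calcium, let out of its store by the ryanodine receptor, binds troponin C and frees actin for myosin. Fast and slow fibres build this machine from separate genes: each has its own myosin heavy and light chains, its own troponin C, I and T and its own calcium pump. Fast fibres lean on glycogen breakdown, and slow fibres on oxygen held by myoglobin. Limb, trunk and skin muscles of the mouse are mostly fast. The ratio of fast to slow genes reflects the mix of fibres behind the RNA and does not by itself name a muscle.

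Muscle genes made up 4.02% to 11.7% of the FPKM over the loci analysed, a set without loci of no gene name or several. That set leaves out loci of up to 1802310 (WT) and 35800000 FPKM (AROM) in the paired-end columns. Summed over the 32 members, FPKM came to 4.02% (WT), 10.3% (AROM), 11.7% (CERM) and 5.86% (BRCA) of the sum over all loci analysed in the single-end columns. In the paired-end columns the shares were 7.12%, 6.89%, 9.29% and 5.58% in the same order. CERM had the highest share in both layouts. WT was the lowest of the single-end columns and lay above AROM and BRCA in the paired-end ones. In whole tissue, more muscle cells and more RNA per muscle cell cannot be told apart.

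The label was checked against its defining genes. Acta1, the actin of skeletal muscle thin filaments, was the most abundant member of each column. It stood at 3250, 7966, 10177 and 3975 FPKM (single-end; here and below in the order WT, AROM, CERM, BRCA) and at 5661, 5598, 7354 and 3999 FPKM (paired-end). AROM and CERM were 2.45 and 3.13 times WT in the single-end columns. In the paired-end ones CERM was 1.30 times WT and AROM 0.989 times. Of 6 cardiac muscle genes, 4 had a row of their own (Myl7, Ryr2, Nppa and Mybpc3), and their summed FPKM lay between 0.0397 and 0.467 in the 8 columns. Genes that heart shares with skeletal muscle, such as Tnnc1, cannot make this check. Nor can the cardiac Myh6, which shares a locus with Myh7 (20.2 to 76.0 FPKM). Myl4, Actc1 and Tnnt2, made in heart and in developing muscle, were not in this sum. They reached 16.9, 7.75 and 1.79 FPKM.

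**Figure D1:**
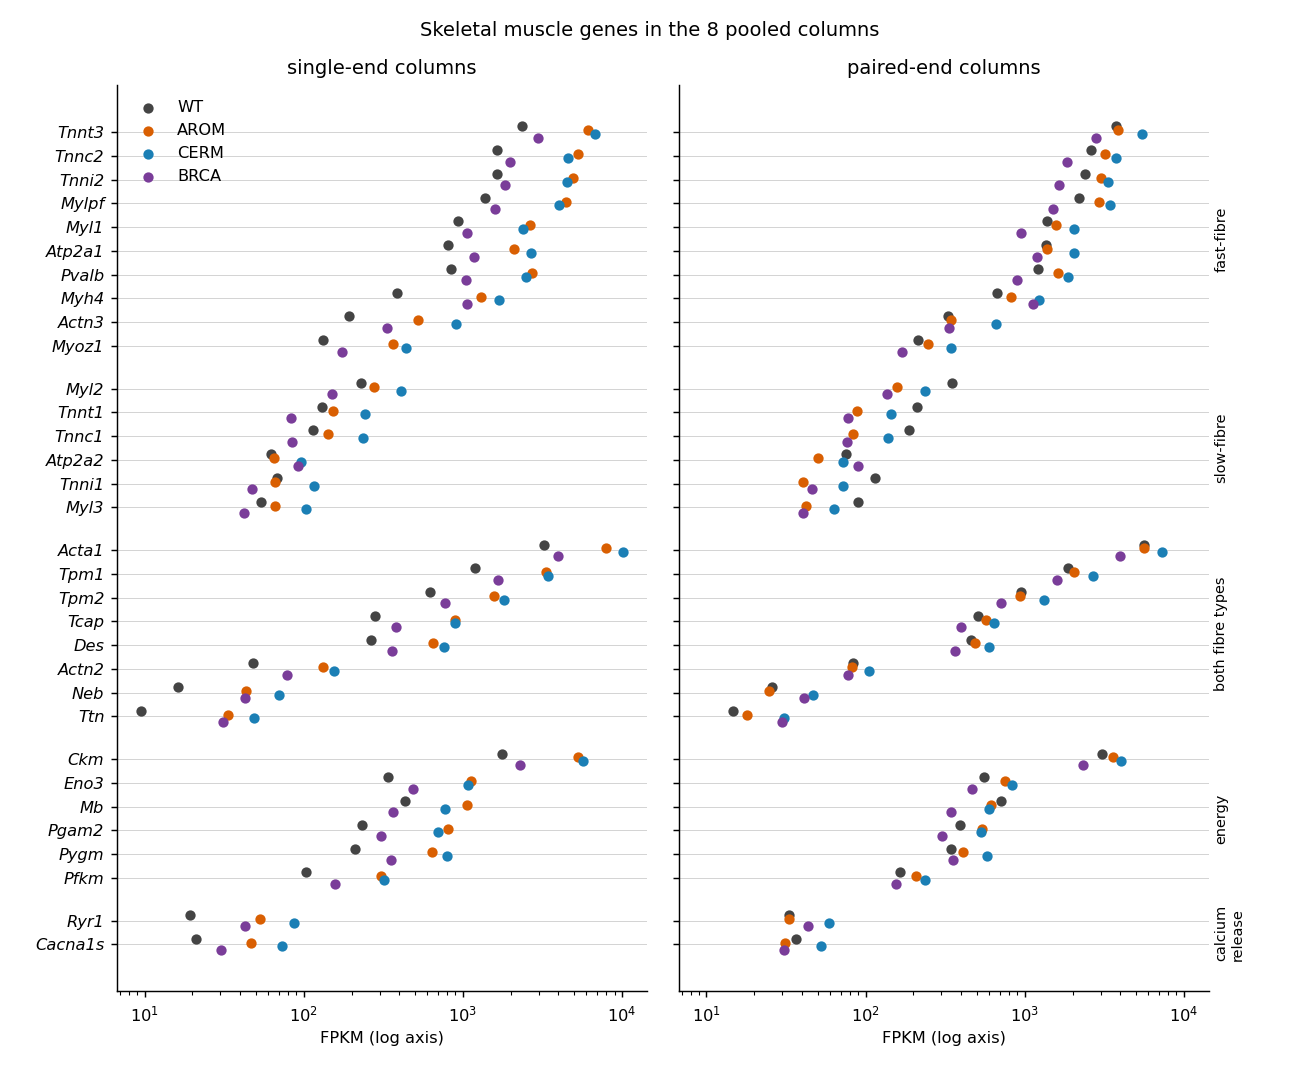
FPKM (log axis) of the 32 muscle genes, grouped by role, in the 4 single-end columns (left) and the 4 paired-end columns (right); each point is 1 pooled column, with no error. On the left AROM and CERM lie to the right of WT for nearly every gene, for example Tnnc2 at 5333 and 4580 against 1646 FPKM; on the right the genotypes lie closer, and WT is the highest column for the slow genes other than Atp2a2.

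The fast-fibre genes came first in abundance and moved nearly as a block. Tnnc2, the calcium sensor troponin C of fast fibres, had 1646, 5333, 4580 and 1992 FPKM (single-end) and 2604, 3193, 3742 and 1860 FPKM (paired-end). AROM and CERM were thus far above WT and BRCA in one layout, and the 4 columns lay closer together in the other.

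Other fast members also had AROM and CERM above WT and BRCA. Mylpf, the fast regulatory light chain, was at 1386, 4456, 4040 and 1601 FPKM in WT, AROM, CERM and BRCA (single-end) and at 2204, 2934, 3459 and 1507 FPKM (paired-end). Pvalb, parvalbumin, a soluble calcium buffer that speeds relaxation, was at 841, 2710, 2483 and 1054 FPKM (single-end) and at 1206, 1622, 1871 and 893 FPKM (paired-end). Atp2a1, the calcium pump of fast fibres, was at 811, 2090, 2704 and 1184 FPKM (single-end) and at 1370, 1382, 2043 and 1190 FPKM (paired-end). In each of these genes BRCA was the lowest of the paired-end columns and WT the lowest of the single-end ones. Myl1, the fast essential light chain, ran from 928 to 2653 FPKM over the 8 columns and Myoz1, a Z-disc protein of fast fibres, from 133 to 438. Tnni2 and Tnnt3, the inhibitory and tropomyosin-binding troponins of fast fibres, reached 4911 and 6166 FPKM in AROM and 4554 and 6764 FPKM in CERM against 1653 and 2343 FPKM in WT (single-end).

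Some fast members kept to an order of their own. Actn3, the fast-fibre alpha-actinin of the Z disc, was at 194, 521, 908 and 336 FPKM (single-end) and at 328, 346, 658 and 337 FPKM (paired-end). CERM thus stood clear of the other 3 columns in both layouts. Myh4, the myosin heavy chain of the fastest (IIB) fibres, was at 387, 1304, 1692 and 1061 FPKM (single-end) and at 675, 818, 1232 and 1130 FPKM (paired-end). Unlike the other fast genes, Myh4 was nearly as high in BRCA as in CERM in the paired-end columns.

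The slow-fibre genes were far less abundant, with a summed FPKM of 462 to 1204 over the 8 columns against 10322 to 30562 for the fast ones. Tnnc1, the troponin C of slow fibres and heart, was at 114, 142, 237 and 84.4 FPKM (single-end) and at 187, 83.1, 139 and 76.6 FPKM (paired-end). Myl2, the slow regulatory light chain, was at 229, 275, 408 and 150 FPKM (single-end) and at 349, 158, 237 and 137 FPKM (paired-end). Tnnt1, slow troponin T, was at 130, 153, 244 and 82.7 FPKM (single-end) and at 210, 88.2, 145 and 78.1 FPKM (paired-end). For these genes BRCA was the lowest column in both layouts, and WT was the highest of the paired-end columns. Tnni1, slow troponin I, was at 68.1, 66.1, 116 and 47.6 FPKM (single-end) and at 114, 40.3, 72.1 and 45.9 FPKM (paired-end), so AROM was below BRCA in the second layout. Myl3, the slow essential light chain, was at 54.1, 66.2, 104 and 42.1 FPKM (single-end) and at 90, 42.5, 63.3 and 40.3 FPKM (paired-end). BRCA was the lowest Myl3 column in both layouts too. Atp2a2, a calcium pump that many cell types also use, kept a narrow range of 50.4 to 95.8 FPKM over the 8 columns. It did not share the order of the other slow genes. Its value is that of the higher of 2 loci that bear its name, and the other locus was under 2 FPKM in each column.

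Among members that serve both fibre types, the order followed the fast genes in the single-end columns. In the paired-end ones AROM lay below WT for 4 of these 8 members, against 0 of the 10 fast genes. Tpm1, a tropomyosin that lies along the actin filament, was at 1196, 3345, 3414 and 1676 FPKM in WT, AROM, CERM and BRCA (single-end) and at 1868, 2049, 2708 and 1598 FPKM (paired-end). Des, the desmin filament that ties sarcomeres together, was at 266, 650, 759 and 360 FPKM (single-end) and at 461, 490, 601 and 366 FPKM (paired-end). Tpm1, Tpm2 and Des are also made by smooth muscle and myoepithelium, and the part of those cells in their values was not tested. For 10 analysed genes of those cells (Acta2, Tagln, Oxtr and others), medians against single-end WT were -0.23 in AROM and 0.02 in CERM. The 32 muscle genes were at 1.42 and 1.57 (all log2 differences of FPKM + 1). The paired-end medians lay closer, at -0.62 and 0.21 for those genes and 0.08 and 0.52 for the muscle genes. Ttn, the giant spring protein titin, was at 9.51, 33.4, 48.7 and 31.3 FPKM (single-end) and at 14.7, 18.1, 30.7 and 29.7 FPKM (paired-end). Neb, nebulin, which runs along thin filaments, was at 16.3, 43.6, 70.5 and 43.1 FPKM (single-end) and at 25.7, 24.9, 46.6 and 41.2 FPKM (paired-end). The remaining shared genes were Tpm2, a second tropomyosin (623 to 1809 FPKM over the 8 columns), Tcap, which anchors titin (282 to 889), and Actn2, the alpha-actinin of all fibres (48.3 to 155). For Ttn and Neb, as for Myh4, BRCA lay close to CERM in the paired-end columns.

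The 6 energy genes summed to 3086 to 9352 FPKM over the 8 columns, below the 8 shared sarcomere genes at 5691 to 17322. Ckm, muscle creatine kinase, which recharges ATP, was at 1766, 5292, 5689 and 2287 FPKM (single-end) and at 3081, 3590, 4010 and 2338 FPKM (paired-end). Pygm, the glycogen phosphorylase lost in McArdle disease, was at 209, 640, 791 and 355 FPKM (single-end) and at 347, 409, 579 and 355 FPKM (paired-end). Pgam2, muscle phosphoglycerate mutase, was at 233, 808, 701 and 306 FPKM (single-end) and at 393, 538, 530 and 301 FPKM (paired-end). Eno3, muscle enolase, ran from 341 to 1134 FPKM over the 8 columns, and Pfkm, muscle phosphofructokinase, from 104 to 320. In the single-end columns all 3 of Ckm, Pygm and Pgam2 had AROM and CERM above BRCA, and WT lowest. Among the paired-end columns BRCA was lowest for Ckm and Pgam2, and WT and BRCA nearly matched for Pygm. Mb, the oxygen store myoglobin, was at 433, 1065, 772 and 366 FPKM (single-end) and at 707, 618, 595 and 344 FPKM (paired-end). Mb thus lay between the patterns of the fast and slow genes, with WT its highest paired-end column.

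The calcium release pair was rarer. Ryr1, the ryanodine receptor, was at 19.2, 53.0, 87.1 and 42.6 FPKM in WT, AROM, CERM and BRCA (single-end) and at 33.0, 32.8, 58.5 and 43.4 FPKM (paired-end). Cacna1s, the voltage sensor that opens it, was at 21.0, 46.4, 73.0 and 30.3 FPKM (single-end) and at 36.3, 31.1, 52.8 and 30.5 FPKM (paired-end). CERM was the highest column of both genes in both layouts.

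The 5 members without a row of their own cannot be told from the genes they share a locus with. The locus of Myh1, Myh2 and the embryonic Myh3 was at 121, 420, 409 and 210 FPKM in WT, AROM, CERM and BRCA (single-end) and at 222, 257, 290 and 222 FPKM (paired-end), in the order of the fast genes. The locus of Myh7 and the cardiac Myh6 was at 25.9, 38.2, 76.0 and 37.5 FPKM (single-end) and at 41.8, 20.2, 45.0 and 36.4 FPKM (paired-end). Tpm3 shared a locus with Nup210l (109 to 248 FPKM over the 8 columns).

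Each genotype was then compared with WT within its layout, on the log2 scale of FPKM + 1, with a gene called when at least 2-fold apart. In AROM against single-end WT, 26 of the 32 members were called higher and none lower, where 2.32% of all loci analysed were called higher and 1.77% lower. The median over members was 1.42, beside 0.00 over all loci. Called were the 10 fast, 8 shared sarcomere, 6 energy and 2 calcium release members, and none of the 6 slow ones, whose ratios ran from 0.970 to 1.25. In the paired-end columns the same contrast had no member higher and 5 lower, where 1.99% of loci were higher and 2.83% lower. Those 5 were Tnnc1, Tnni1, Tnnt1, Myl2 and Myl3, which are the slow members other than Atp2a2. The member median there was 0.08, and fast ratios ran from 1.01 to 1.34. Against the same WT columns, 8 luminal epithelial genes had medians of -1.16 (single-end) and -1.60 (paired-end) in AROM, and 9 white fat genes 0.28 and 1.09. Summed FPKM of the luminal genes was 929 in WT and 449 in AROM, then 747 and 263, and that of the fat genes 16224 and 24554, then 12495 and 30330. The part of these shifts in tissue make-up in the muscle values was not tested.

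In CERM against WT, 26 of the 32 members were called higher in the single-end columns and none lower, where 3.64% of loci were called higher and 1.06% lower. The member median was 1.57, beside -0.04 over all loci. The members not called were Mb, with a ratio of 1.78, and the slow genes other than Tnnc1, which was 2.08 times WT. In the paired-end columns 2 members were called higher, Actn3 (ratio 2.01) and Ttn (2.08), and none lower, where 3.72% of loci were higher and 0.900% lower. The median there was 0.52, fast ratios ran from 1.38 to 2.01, and the 6 slow ratios from 0.631 to 0.961. Both paired-end calls sit at the edge of 2-fold: neither was called with median-ratio scaling, a pseudocount of 5 or equal sums over genes outside the muscle lists, each of which left 0 members called higher. Schwann cell genes, of the nerve sheath, summed over 6 of 6 listed to 148, 266, 211 and 104 FPKM (single-end) and 157, 204, 190 and 100 FPKM (paired-end), and 3 of the 6 were called higher in AROM than in single-end WT. Their part in the muscle values was not tested.

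In BRCA against WT, 4 members were called higher and none lower in the single-end columns, where 3.65% of loci were called higher and 1.96% lower. They were Myh4 (ratio 2.74), Ttn (3.30), Neb (2.65) and Ryr1 (2.22), and the member median was 0.38. In the paired-end columns none was higher and 6 were lower, where 5.01% of loci were higher and 1.29% lower. The 6 were the slow genes other than Atp2a2, with ratios from 0.372, and Mb, at 0.486. Ttn was at a ratio of 2.01 but short of the call with 1 FPKM added. The median there was -0.37. With a pseudocount of 0.1 a single member was called higher in that contrast.

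**Figure D2:**
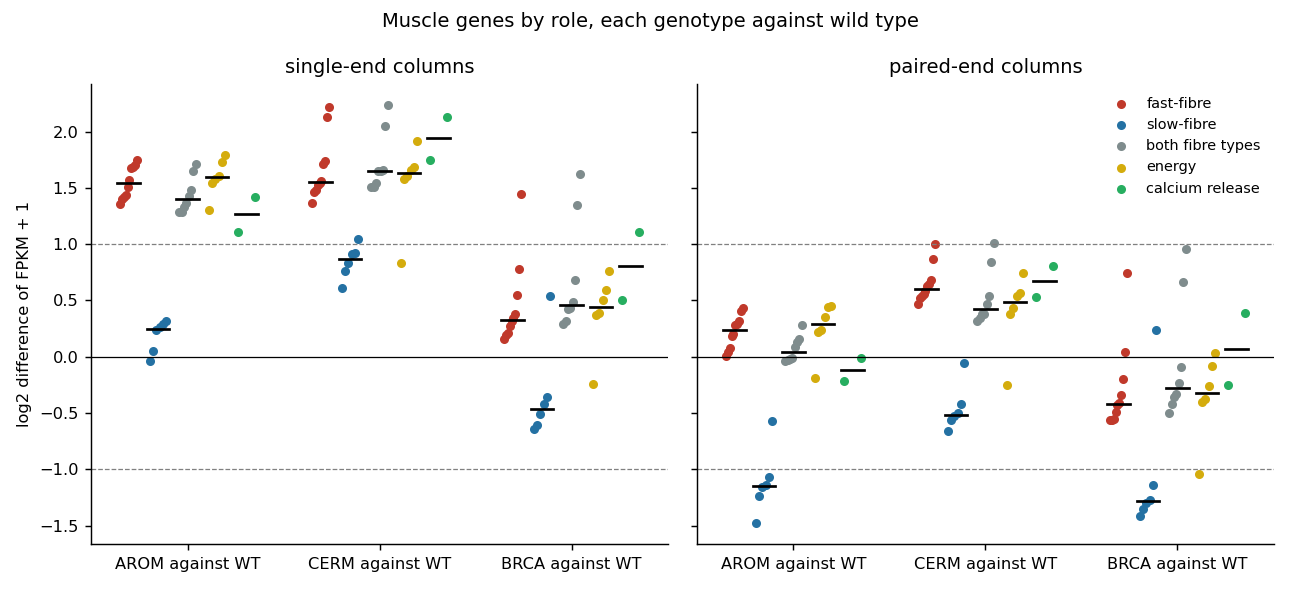
Log2 difference of FPKM + 1 of each muscle gene between a genotype and WT, in the single-end (left) and paired-end (right) columns, coloured by role; black bars are role medians and dashed lines mark 2-fold. The slow median lies below the fast one in each contrast, at 0.25 against 1.54 in AROM (single-end) and -1.15 against 0.24 (paired-end).

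Because WT enters each of those contrasts, the remaining genotypes were also set against BRCA. In AROM against BRCA 14 of 32 members were called higher in the single-end columns (3.10% of loci higher, 5.48% lower) and none in the paired-end ones (4.37% higher, 10.7% lower), with medians of 0.92 and 0.38. In CERM against BRCA 27 were called higher in the single-end columns (3.11% of loci higher, 3.02% lower) and 6 in the paired-end ones (2.48% higher, 2.94% lower), with medians of 1.20 and 0.78. No member was called lower in these contrasts as deposited. Between AROM and CERM no member was called in the single-end columns (0.837% of loci higher, 1.92% lower) or the paired-end ones (2.26% higher, 4.21% lower), and the medians were -0.25 and -0.49. These contrasts share columns with those above and are no independent support for them.

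The mix of fast and slow genes differed less between the layouts than the amount did, and it differed most in CERM, where the ratio over 8 pairs in the paired-end column was a median of 1.29 times that in the single-end one (0.984 in WT, 1.04 in AROM and 1.02 in BRCA). Within a column, Tnnc2 over Tnnc1 was 14.5, 37.6, 19.4 and 23.6 (single-end) and 14, 38.4, 26.9 and 24.3 (paired-end). Each genotype other than CERM gave nearly the same troponin C ratio in both layouts. For Tnni2 over Tnni1 the ratio was 24.3, 74.3, 39.2 and 38.7 (single-end) and 21.1, 74.7, 46.1 and 35.6 (paired-end). For Tnnt3 over Tnnt1 it was 18.1, 40.2, 27.7 and 35.7 (single-end) and 17.8, 43.5, 37.6 and 36.1 (paired-end). The light chains behaved alike. Mylpf over Myl2 was 6.04, 16.2, 9.91 and 10.7 (single-end) and 6.31, 18.6, 14.6 and 11.0 (paired-end), and Myl1 over Myl3 was 17.1, 40.1, 23.2 and 25.2, then 15.5, 37, 32.5 and 23.5. Myh4 over the shared Myh6 and Myh7 locus was 14.9, 34.1, 22.3 and 28.3 (single-end) and 16.2, 40.5, 27.4 and 31.0 (paired-end).

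WT had the lowest and AROM the highest ratio for each of these 6 pairs in both layouts. Over the 8 pairs compared, Actn3 over Actn2 among them, the ratio in AROM was a median of 2.41 times that in WT (single-end) and 2.47 times (paired-end). In CERM the median was 1.51 and 2.02 times WT, and in BRCA 1.61 and 1.71 times. The exceptions were the alpha-actinins and the calcium pumps. Actn3 over Actn2 ranged from 3.95 to 4.31 in WT, AROM and BRCA and was 5.85 and 6.26 in CERM, and Actn2 is made in both fibre types. Atp2a1 over Atp2a2 was 13.0, 32.2, 28.2 and 12.9 (single-end) and 18.2, 27.4, 28.2 and 13.3 (paired-end), and Atp2a2 is shared with many other cells. The difference of the fast and slow medians on the log2 scale was 1.29 and 1.39 in AROM against WT (single-end, paired-end), 0.68 and 1.12 in CERM, and 0.80 and 0.87 in BRCA. A ratio within a column does not depend on how that column was scaled. In pooled whole tissue, a different muscle and a different fibre make-up of the same muscle cannot be told apart.

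**Figure D3:**
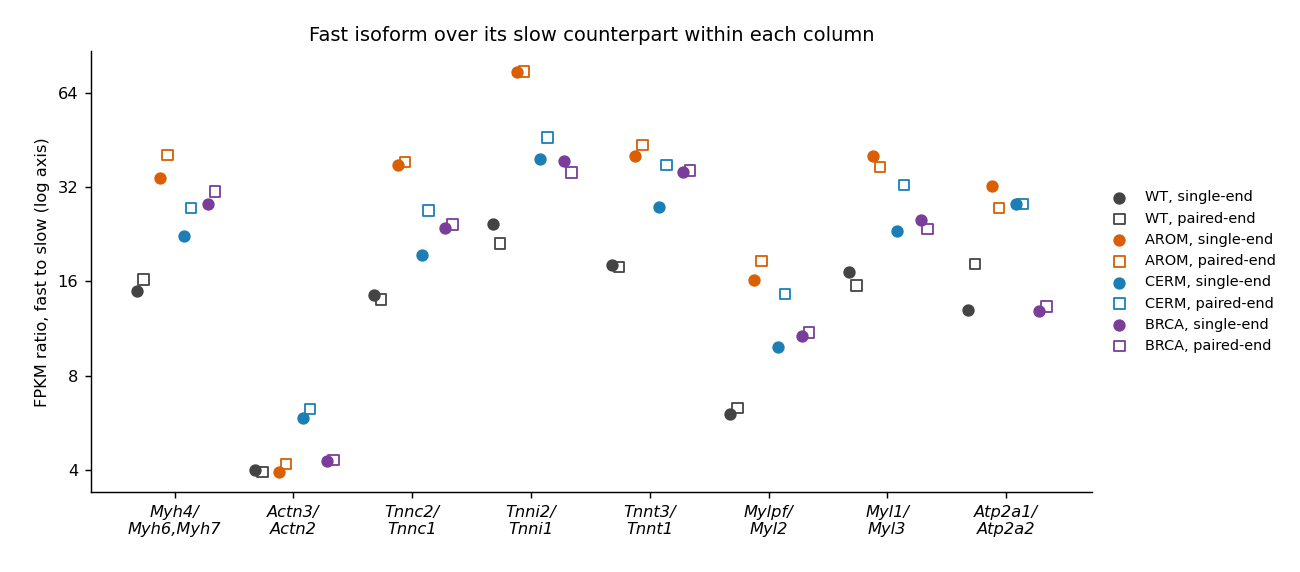
FPKM of a fast isoform over that of its counterpart (log axis) for 8 gene pairs, by genotype. The counterpart is the slow isoform, or for Actn3 the Actn2 of both fibre types. Filled circles are single-end and open squares paired-end columns. In the troponin, light chain and myosin heavy chain pairs WT is lowest and AROM highest in both layouts, and the CERM markers lie apart in several pairs (9.91 and 14.6 for Mylpf over Myl2). The WT and AROM markers lie near each other in most, as for Tnni2 over Tnni1 at 24.3 and 21.1 in WT and 74.3 and 74.7 in AROM.

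The amount of muscle RNA differed between layouts of one genotype, a comparison added after the data were seen. In WT each of the 32 members was higher in the paired-end column, by a median of 1.64 times (range 1.21 to 1.82). In AROM each was lower there, with a median ratio of 0.628 (0.542 to 0.776), and in CERM each was lower too, with a median of 0.731 (0.580 to 0.857). In BRCA the layouts nearly matched, at a median of 0.965 (0.847 to 1.07). No member passed 2-fold between layouts, where 1.98% (WT), 2.32% (AROM), 2.77% (CERM) and 1.67% (BRCA) of loci did either way. In the order WT, AROM, CERM, BRCA, member medians on the log2 scale were 0.71, -0.67, -0.45 and -0.05, beside -0.13, -0.23, -0.07 and -0.03 over all loci. The single-end excess of AROM over WT thus moved from both sides towards no difference. The labels list the same number of libraries in both layouts for BRCA alone, and the part of library number was not tested. For WT the listed numbers do not match the decimals described above. Whether the layouts or the animals behind them differ cannot be told apart.

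**Figure D4:**
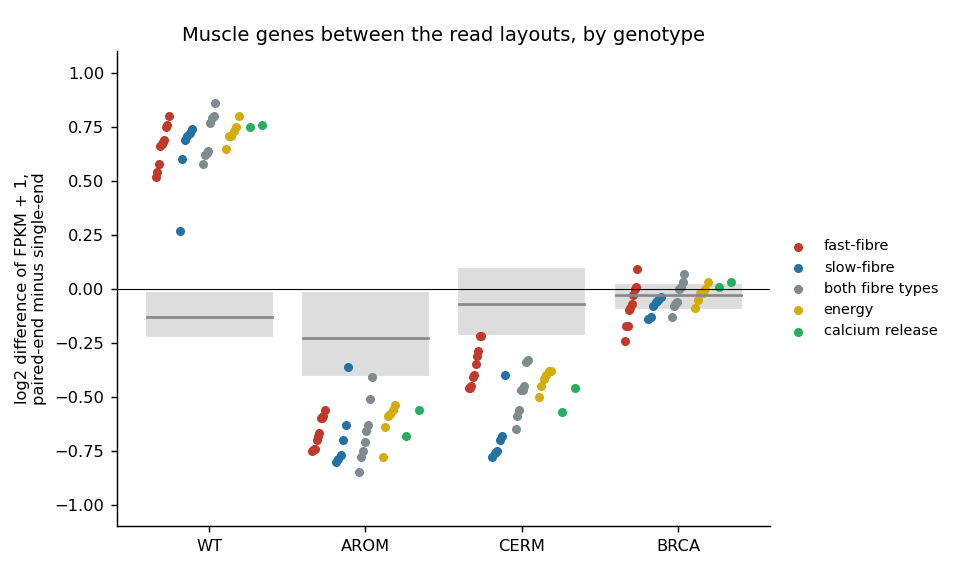
Log2 difference of FPKM + 1 between the paired-end and single-end columns of each genotype for the 32 muscle genes, coloured by role; grey boxes span the interquartile range of all loci analysed and grey lines their median. Muscle genes lie above the box in WT (median 0.71), below it in AROM and CERM (-0.67 and -0.45) apart from Atp2a2 in AROM, and about it in BRCA (-0.05).

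Of the 5 longest members 4 stood apart in BRCA against WT, a comparison also added after the data were seen. Lengths are those of the longest coding transcript in GENCODE M21, found for 32 of 32 members and 88.0% of loci analysed. The 5 members over 5000 bases, Ttn, Neb, Ryr1, Cacna1s and Myh4, had a median log2 difference from WT of 1.35 (single-end) and 0.66 (paired-end). Cacna1s did not share the shift, at 0.50 and -0.25, near the 10 members of 1500 to 5000 bases that are not slow isoforms, at 0.52 and -0.21. The 11 members under 1500 bases that are not slow isoforms had 0.29 and -0.49. Long transcripts at large moved the same way by less: 2409 loci over 5000 bases had medians of 0.24 and 0.30, and 1537 loci under 1500 bases had -0.19 and -0.14. In AROM against WT the long members and the short ones that are not slow were at 1.42 and 1.57 (single-end) and at -0.01 and 0.20 (paired-end), a smaller gap of the opposite sign. In CERM they were at 2.13 and 1.54, then at 0.84 and 0.52. No measure of RNA integrity was used here, and the part of length in the high Ttn, Neb and Myh4 values was not tested.

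**Figure D5:**
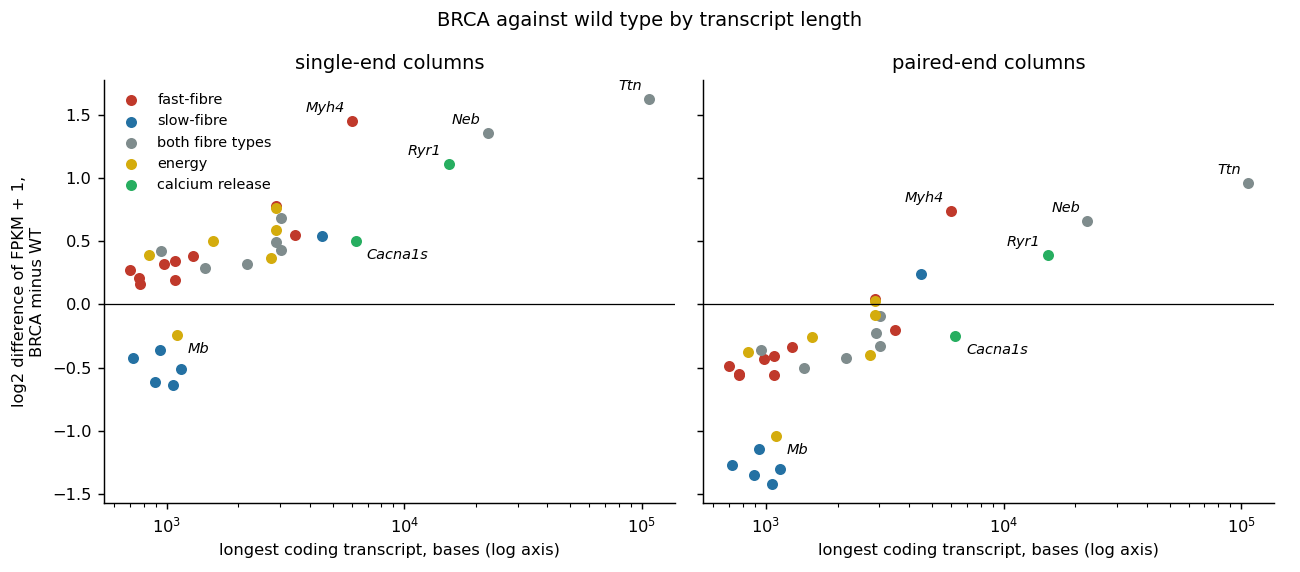
Log2 difference of FPKM + 1 between BRCA and WT against the length of the longest coding transcript (log axis), for the 32 muscle genes in the single-end (left) and paired-end (right) columns. Ttn, Neb, Ryr1 and Myh4 lie highest in both panels (1.62, 1.35, 1.11 and 1.45 on the left), and the slow genes other than Atp2a2 lie lowest.

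Sequences just before the start sites were read because so many members moved together. Start regions of 30 members were found in the RefSeq promoter table (build GRCm38.p6, not the mm9 build of the expression table), with 40 start sites; Actn3, Tnni2, Tnnt3, Atp2a2, Neb, Myoz1 and Tcap had none. In the 250 bases before the start, on either strand, the MEF2 motif was held by 5 of 40 member starts (12.5%) and 2.92% of 32851 starts in the table. The CArG box, bound by serum response factor, was held by 3 (7.5%) against 1.47%. The E-box CANNTG, bound by MyoD and its relatives among many others, was held by 35 (87.5%) against 66.2%, and TATAAA by 6 (15%) against 12.4%. TATAAA can overlap the MEF2 motif. By fibre type, 3 of 10 fast starts (of Myh1, Myh4 and Pvalb) and none of 11 slow starts held the MEF2 motif. The E-box went the other way, with 7 of 10 fast and 11 of 11 slow starts. TATAAA was in 3 fast and 2 slow starts, and the CArG box in 1 and 1. Several starts of 1 gene are counted separately here, so these are not counts of genes. A match is not a bound site, and members with no match are not shown to lack the factor. The 7 starts with a MEF2 motif or a CArG box are printed below from 20 bases before the first motif to 20 bases after the last (or to the start site), 5′ to 3′ on the gene's strand, with MEF2, CArG and TATAAA matches in capitals.
Acta1 (chr8:123894776-123894868, minus strand, CArG box 73 bases before the start): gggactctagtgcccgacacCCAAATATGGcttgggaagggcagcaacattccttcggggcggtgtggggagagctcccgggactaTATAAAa
Myh1 (chr11:67199871-67200095, plus strand, MEF2 motif 211 bases before the start): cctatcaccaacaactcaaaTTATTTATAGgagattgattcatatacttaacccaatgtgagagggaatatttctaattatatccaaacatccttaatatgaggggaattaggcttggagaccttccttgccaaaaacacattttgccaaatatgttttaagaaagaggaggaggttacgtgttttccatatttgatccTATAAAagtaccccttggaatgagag
Myh4 (chr11:67237579-67237806, plus strand, MEF2 motif 182 and CArG box 104 bases before the start): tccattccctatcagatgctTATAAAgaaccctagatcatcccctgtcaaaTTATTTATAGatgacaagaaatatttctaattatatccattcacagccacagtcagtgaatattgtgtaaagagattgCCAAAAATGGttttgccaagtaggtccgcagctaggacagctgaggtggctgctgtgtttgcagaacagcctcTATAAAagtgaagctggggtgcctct
Pgam2 (chr11:5803847-5803896, minus strand, MEF2 motif 80 bases before the start): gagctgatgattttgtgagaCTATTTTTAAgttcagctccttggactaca
Pvalb (chr15:78206551-78206600, minus strand, MEF2 motif 180 bases before the start): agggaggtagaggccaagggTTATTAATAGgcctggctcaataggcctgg
Ttn (chr2:76982684-76982733, minus strand, MEF2 motif 166 bases before the start): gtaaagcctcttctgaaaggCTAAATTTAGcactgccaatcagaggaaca
Myl3 (chr9:110763573-110763622, plus strand, CArG box 85 bases before the start): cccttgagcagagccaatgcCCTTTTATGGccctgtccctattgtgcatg
The fast myosin genes Myh1 and Myh4 hold the same MEF2 letters, TTATTTATAG, and Myl3 is the slow isoform with a CArG box.

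Muscle genes outside the members were read from a list of 48, of which 46 were analysed. Against WT in the single-end columns, 36 of them were called higher in AROM, 40 in CERM and 8 in BRCA, and 1 (Sln) lower in BRCA; the medians were 1.29, 1.51 and 0.55. In the paired-end columns 1, 1 and 2 were called higher and 1, 1 and 4 lower, with medians of -0.03, 0.44 and -0.11; the muscle gene Nrap was listed at 0 there in WT, against 47.2 to 66.0 FPKM in the other paired-end columns, and is 1 of the genes called higher in each. The 4 most abundant were Cox8b, Cox6a2, Mybpc2 and Ldb3. Mybpc2, a thick-filament protein of fast fibres, was at 105, 303, 456 and 239 FPKM (single-end) and at 175, 201, 348 and 239 FPKM (paired-end), again with BRCA above WT in both. Cox8b, a cytochrome oxidase subunit also made in brown fat, was at 817, 1467, 945 and 901 FPKM (single-end) and at 969, 1930, 633 and 791 FPKM (paired-end), so AROM rather than CERM was its highest column. Summed FPKM of 7 brown fat genes was 606, 701, 568 and 872 (single-end) and 706, 1283, 357 and 846 (paired-end), and their part in Cox8b was not tested. Myogenic regulators, the transcription factors of the muscle lineage, were lower in abundance: Myf6 was at 7.05, 20.3, 20.1 and 16.3 FPKM in WT, AROM, CERM and BRCA (single-end) and at 11.4, 12.5, 16.8 and 15.3 FPKM (paired-end). Of that list 7 genes of 10 were analysed, and Pax7, the satellite cell factor, was at most 0.152 FPKM in each column. The genes whose profile over the 8 columns lay nearest to the median of the fast members, by root mean square distance on the log2 scale after centring each layout, were Mylk2, Tcea3, Ank1, Ldb3, Cacng1, Pcp4l1, Sypl2, Hfe2, Lmod3 and Adssl1, at distances of 0.05 to 0.10. Mylk2, the myosin light chain kinase of skeletal muscle, was at 36.6, 101, 111 and 44.6 FPKM (single-end) and at 62.1, 69.4, 84.4 and 45.0 FPKM (paired-end). Of the fast members themselves, Myh4 was the farthest from that median profile, at 0.44, and Actn3 next, at 0.28.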

How the data were processed

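Polyadenylated RNA of whole mammary glands was made into TruSeq libraries and sequenced on a HiSeq instrument, per the labels' protocols. The submitters' processing notes name TopHat and Cufflinks with mm9, and FastQC and Trim Galore for read quality, without versions. The authors deposited FPKM values, which scale fragments by transcript length and mapped total, in 8 columns pooled by genotype and layout. Values were used as deposited. Loci with 1 gene symbol were kept (the highest locus where several share it), and 12782 of 21219 had at least 1 FPKM in at least 2 of 8 columns; all 32 members with a row passed. Differences are log2 ratios of FPKM + 1, which understate low genes, with calls at 2-fold and no test. Transcript lengths came from GENCODE M21 and promoters from RefSeq (GRCm38.p6). The locus that holds Casq1 is not reported here. Strand handling is not given, so overlapping genes may share reads. The members, lists, fast and slow roles and named genes were chosen with earlier results of these data known, as were the length classes and the layout comparison. All 37 members may be named, with the 4 most abundant genes of other lists and the 10 nearest profiles; Nrap, Sln, Pax7, Xirp1 and Trim63 were added after their values were seen. Alternatives were other pseudocounts, scalings, filters, thresholds and member sets. Python 3.11.15, NumPy 2.4.6, pandas 2.3.3 and Matplotlib 3.10.9 were used, and the call rule was tested on simulated data.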

Additional observations from a re-analysis of the deposited data

Results flagged for a closer look

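Several role medians of the muscle genes had opposite signs in the 2 layouts for the same contrast with WT, as log2 differences of FPKM + 1. With 1 pooled column for each group, none of these differences between layouts was tested. For the slow genes in AROM the median was 0.25 (single-end) and -1.15 (paired-end), and in CERM it was 0.87 and -0.52. For the calcium release genes in AROM it was 1.26 and -0.11. In BRCA the median was 0.33 and -0.42 for the fast genes, 0.46 and -0.28 for the shared sarcomere genes, and 0.44 and -0.32 for the energy genes.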

How the results depend on the processing

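No paired analysis was possible because the columns are pooled by genotype and layout and carry no replicate numbers; for the same reason no replicate could be left out. The fast-minus-slow differences from WT kept their sign under each alternative run, at 1.28 to 1.29 in AROM, 0.64 to 0.70 in CERM and 0.77 to 0.84 in BRCA (single-end). The scalings and the filter could hardly have changed this. A column factor cancels almost wholly in such a difference, and the filter removed no member. Only the pseudocounts and the changed member sets could move it. Leaving out the members that other gland cells also express moved no count of calls by over 1.5 times. All 32 members passed the filter on low values, so a run without that filter could not change their counts. The member median of BRCA against single-end WT, 0.38, was 0.61 under equal sums over genes in no muscle list. With calls at 3-fold, members higher than single-end WT came to 9 in AROM, 15 in CERM and 1 in BRCA, those higher than paired-end WT to 0 in CERM, and those lower than paired-end WT to 0 in AROM and 0 in BRCA. The members higher than BRCA, 14 in single-end AROM and 27 and 6 in single-end and paired-end CERM, each came to 0 at 3-fold. The share of all loci called was not computed at 3-fold or with the other pseudocounts. With median-ratio scaling, 3 members rather than 5 were lower in AROM than in paired-end WT (all loci 296 rather than 362). Under that scaling, under equal sums over genes in no muscle list and with a pseudocount of 5, the 2 members higher in CERM than in paired-end WT came to 0. All loci so called numbered 446 with median-ratio scaling and 442 under equal sums, against 476 as deposited. With a pseudocount of 0.1, 1 member was higher in BRCA than in paired-end WT. Median-ratio scaling raised the members higher in AROM than in paired-end BRCA from 0 to 7, and all loci so called rose from 559 to 1057. Under equal sums, members higher in AROM than in single-end BRCA came to 7 rather than 14 (all loci 229 rather than 396). Members higher in CERM than in paired-end BRCA came to 2 rather than 6 (all loci 261 rather than 317). Under equal sums 1 and 2 members were lower in AROM than in paired-end BRCA and CERM. All loci lower there numbered 2027 and 711, against 1367 and 538 as deposited. The median of AROM against paired-end WT, 0.08, was -0.11 under equal sums. Over all loci, AROM lay below BRCA and CERM in the paired-end columns by medians of -0.22 and -0.18. Of all loci called in AROM against paired-end WT, 41.2% were higher as deposited, 57.7% with median-ratio scaling and 23.1% under equal sums; for BRCA the share was 65.0% against single-end WT and 81.0% under equal sums, and 79.5% against paired-end WT and 68.9% with median-ratio scaling. In the same order (as deposited, median-ratio scaling, equal sums), the share was 36.1%, 41.4% and 16.9% for AROM against single-end BRCA, 29.0%, 55.3% and 14.5% in the paired-end columns, 50.7%, 58.4% and 38.5% for CERM against single-end BRCA, and 34.9%, 55.9% and 23.0% for AROM against paired-end CERM. The depth behind each column is not given, so counting error is unknown.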

Other observations

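Some muscle genes outside the members had BRCA as their lowest or highest column in both layouts. They were chosen after their values were seen. Sln, sarcolipin, a small inhibitor of the calcium pump, was at 34.5, 38.2, 38.2 and 8.71 FPKM in WT, AROM, CERM and BRCA (single-end) and at 53.0, 22.5, 23.6 and 7.47 FPKM (paired-end), so BRCA was the lowest column of both. The slow members Tnnc1, Myl2, Tnnt1 and Myl3 also had BRCA lowest in both layouts. Xirp1, a scaffold of muscle attachment sites, was at 3.17, 9.21, 13.4 and 26.1 FPKM (single-end) and at 5.59, 6.84, 10.1 and 26.1 FPKM (paired-end), with BRCA the highest. Trim63, a ubiquitin ligase of muscle protein breakdown, was at 12.5, 24.0, 31.4 and 32.3 FPKM (single-end) and at 21.4, 16.9, 27.3 and 32.3 FPKM (paired-end).

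Developmental isoforms, of which 4 of 7 listed were analysed, were at most 16.9 FPKM in any column and did not share an order. Myl4, the embryonic and atrial light chain, was at 7.57, 16.9, 10.4 and 3.80 FPKM in the same order (single-end) and at 6.67, 15, 12 and 3.27 FPKM (paired-end), with AROM highest. Myh8, the perinatal myosin heavy chain, was at 0.982, 2.93, 9.18 and 1.04 FPKM (single-end) and at 0.920, 1.36, 6.35 and 0.448 FPKM (paired-end), with CERM highest. Actc1, the actin of heart and of developing muscle, was at 1.03, 3.79, 7.75 and 6.19 FPKM (single-end) and at 1.79, 2.44, 5.0 and 6.19 FPKM (paired-end). Tnnt2, the troponin T of heart and embryonic muscle, was at most 1.79 FPKM, with BRCA highest in both layouts.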
